A study of Mus musculus with 6 samples.

Results

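Receptors, ligands and target genes of the Notch pathway were followed in R1 mouse embryonic stem cells from 24 h to 48 h in FGF2: the receptors Notch1, Notch2 and Notch3, the ligands Dll1, Dll3, Jag1 and Jag2, and the target genes Hes1, Hes5 and Hey1. They were chosen by name, with earlier results of these data known. All 10 were found by their symbol among the 51912 genes of the count table. The cells of every library had been kept in 2iLIF, a medium that holds mouse embryonic stem cells in the naive state, and were then given N2B27 with 100 ng/ml FGF2. One group was taken after 24 h and the other after 48 h, with 3 libraries each from the same R1 line, and the labels name no genetic change and do not say whether the 3 were separate cultures, so p-values measure the spread between these libraries, which may be technical. Cells left in 2iLIF or given N2B27 without FGF2 were not analysed here, so the effect of FGF2, of the change of medium and of time in culture cannot be told apart.

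Notch receptors are single-pass membrane proteins that meet their ligands on a neighbouring cell. Binding exposes the receptor to cleavage by ADAM proteases and then by gamma-secretase, and the released intracellular part joins the DNA-binding protein RBPJ and a Mastermind coactivator to switch on target genes, among them the basic helix-loop-helix repressors of the Hes and Hey families. Delta-like 1 (Dll1) and the Jagged proteins activate receptors on neighbouring cells, whereas Dll3 is known to act mainly within the cell that makes it. Hes1 protein is known to repress its own gene and Dll1, and in embryonic stem cells Hes1 is also known to respond to LIF and BMP.

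The promoters of Dll1 and Hes5 are shown because these genes mark the extremes of the data, Dll1 with the largest change of the 10 and Hes5 with almost no reads and, alone among the members with an entry, matches to the RBPJ motif. RefSeq (GRCm38.p6) gave promoter entries for 8 of the 10 genes, with a pair of start sites for Dll1, and the 250 bases before each start were searched on both strands. Hes1 and Hey1 had no entry, so their promoters were not searched. The motifs were GTGGGAA for RBPJ, CACNAG for the N box bound by Hes factors, and ATGCAAAT, the octamer bound by POU factors, which was added after the sequences were seen. None of the matches overlapped another. Capitals mark the RBPJ matches in Hes5 and the octamer match in Dll1, in stretches read 5′ to 3′ on the gene's own strand. GTGGGAA in Hes5 lies on that strand, while TTCCCAC in Hes5 and ATTTGCAT in Dll1 are motifs that lie on the opposite strand. The Dll1 stretch (chr17:15375977-15376073, minus strand) ends just before the first exon of the longest Dll1 transcript of GENCODE M21 and lies in an intron of one that starts further upstream and in an exon of the non-coding gene A930024N18Rik on the other strand. The Hes5 stretch (chr4:154960673-154960922, plus strand) ends just before the first base of Hes5 and partly overlaps an exon of the non-coding gene Gm20421 on the other strand.
Dll1: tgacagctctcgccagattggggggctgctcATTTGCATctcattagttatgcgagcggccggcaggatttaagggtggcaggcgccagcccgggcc
Hes5: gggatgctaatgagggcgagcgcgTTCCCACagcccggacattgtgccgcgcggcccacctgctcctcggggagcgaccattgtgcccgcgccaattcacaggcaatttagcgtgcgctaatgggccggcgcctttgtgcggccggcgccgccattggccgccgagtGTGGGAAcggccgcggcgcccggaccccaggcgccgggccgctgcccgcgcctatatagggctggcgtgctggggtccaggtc

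The Hes5 promoter held 2 RBPJ motifs, the first from 226 to 220 and the second from 83 to 77 bases before the start. At least 1 such motif was present in 5.42% of the 32851 promoter windows of the same length in the table, and 2 or more in 0.161%. The octamer of Dll1 lay from 219 to 212 bases before the nearer RefSeq start, and 1.6% of the windows hold one. An N box was found in the promoters of Notch1, Notch2 and Notch3 and in no other of the 9 windows of the members. This share was near the 36.7% of all windows. Such a match is a run of letters and not a bound site, and a window without one says nothing about the factor.

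Depth was alike in the libraries, with 19574969 to 23133148 estimated counts at 24 h and 22148474 to 22733458 at 48 h. Of the 51912 genes, 14889 had enough counts to be tested with edgeR's quasi-likelihood test, and genes with a Benjamini-Hochberg adjusted p under 0.05 are called changed. Levels are given as CPM, the counts per 1e+06 of the library's total over the tested genes, that total being multiplied by a TMM scaling factor. These factors were 1.02 in each 24 h library and 0.976 to 0.982 in the 48 h libraries. Markers of embryonic stem cells were high at both times, among them Pou5f1 at 1111 ± 1.99 and 1058 ± 15.2 CPM (SD, n = 3 each). Of the 8 on that list 3 rose and 5 fell, against 30.9% and 31.9% of all tested genes. Their sum went from between 4807 and 4835 CPM to between 3380 and 3476 CPM. The largest falls were those of Nanog, from 694.7 ± 24.6 to 174.4 ± 6.47 CPM, and Zfp42, from 1034 ± 9.10 to 494.6 ± 23.7 CPM (SD, n = 3 each). Of the other markers, the summed level of 8 neural progenitor genes lay between 52.9 and 55.0 CPM at 24 h and between 92.8 and 101 CPM at 48 h, and that of 8 primitive endoderm genes between 50.01 and 58.1 CPM at 24 h and between 16.6 and 17.2 CPM at 48 h, most of it from Lama1 (43.1 ± 3.39 and 10.8 ± 0.11 CPM, SD, n = 3 each). The summed level of 8 primitive streak and presomitic genes was 17.3 to 20.5 CPM and 14.1 to 16.02 CPM, most of it from Eomes, and that of 8 fibroblast genes was 2.54 to 3.35 and 2.53 to 3.88 CPM. In bulk RNA, fewer cells of a type and less RNA per cell cannot be told apart.

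Of the 10 genes, 9 had enough counts to be tested and 7 changed, against 62.8% of all tested genes. Dll1, Notch2 and Notch3 rose, where 30.9% of all tested genes did. Notch1, Jag1, Hes1 and Hey1 fell, where 31.9% of all tested genes did. Of the 9 tested, 3 were called and changed at least 2-fold, against 11.2% of all tested genes. They were Dll1 upward, as did 4.59% of all tested genes, and Hes1 and Hey1 downward, as did 6.63%. The values of the 2 times did not overlap for 8 of the 9, against 66.9% of all tested genes. Dll3 and Jag2 were tested and not called, and Hes5 was not tested. The median log2 fold change of the 9 was 0.08, and that of all tested genes was -0.01.

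**Figure D1:**
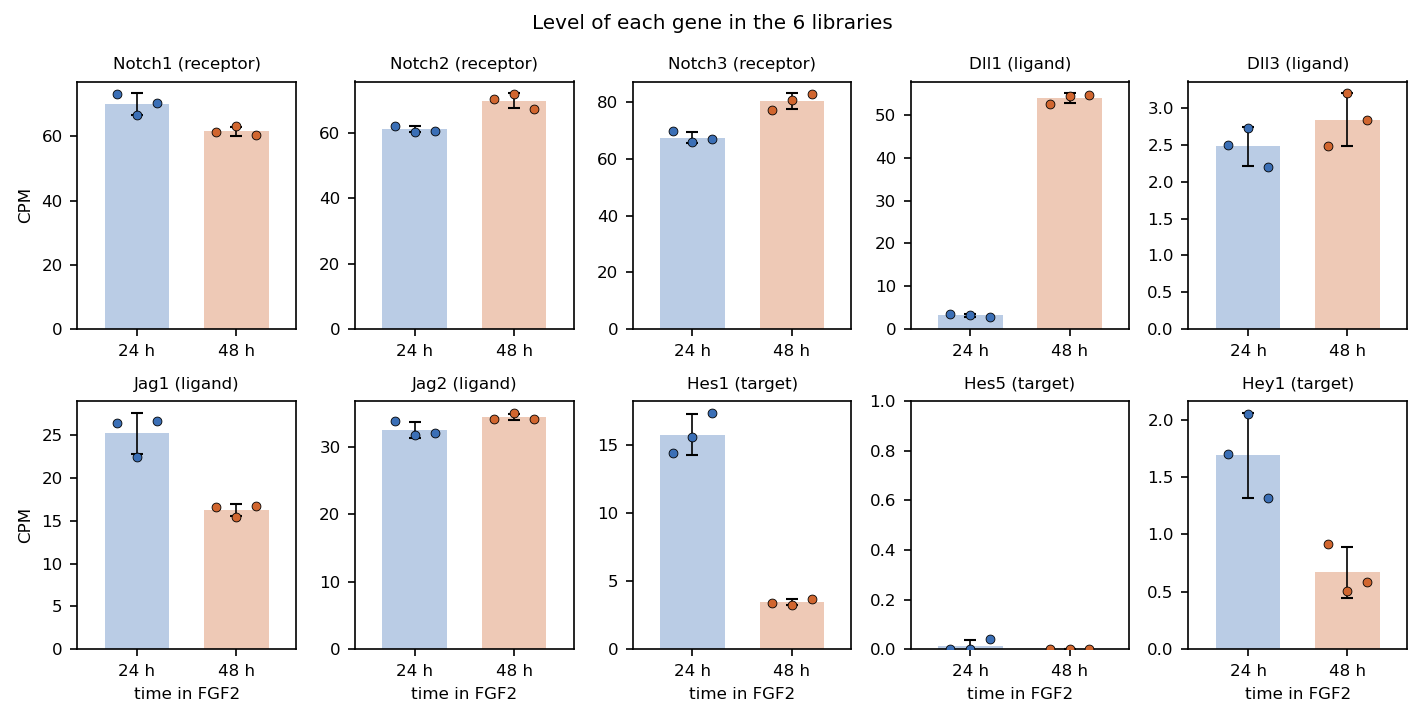
Level of each of the 10 genes in CPM (vertical axis, starting at 0, with its own scale in each panel) at 24 h and 48 h; points are libraries, bars are means and error bars are the SD of 3 libraries. Dll1 stands near 3 CPM in every 24 h library and above 52 CPM in every 48 h library, Hes1 falls from above 14 to below 4 CPM, and Hes5 is at or near 0 in all 6.

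Among the ligands, Dll1 (ENSMUSG00000014773, chr17:15367354-15376872, minus strand) changed most. It had 72, 67 and 67 counts in the 24 h libraries and 1142, 1189 and 1212 in the 48 h libraries. The levels were 3.60, 3.27 and 2.84 CPM at 24 h and 52.6, 54.4 and 54.7 CPM at 48 h, so that the lowest 48 h library lay far above the highest 24 h library. The rise was 16.7-fold, or 4.06 ± 0.07 on the log2 scale (standard error; 95% interval 3.91 to 4.21, edgeR adjusted p = 4.29e-17). By this fold change Dll1 was at rank 26 among the increases of all 14889 tested genes. Exons of A930024N18Rik on the opposite strand cover 867 of the 4219 exonic bases of Dll1, and that gene had at most 5 counts in a library. Of the 8 neural progenitor markers 4 were tested, of which Sox1, Pax6 and Zic1 rose over the same time and Nes fell, and Olig2 had at most 1 count in a library. Of the 8 markers of the primitive streak and presomitic mesoderm, another tissue known for Dll1, Eomes (273 to 361 counts in a library) fell, Mesp2 (22 to 42 counts) was tested and not called, and the other 6, among them T, Tbx6 and Msgn1, had at most 11 counts in a library. The part of either cell type in the level of Dll1 was not tested.

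Jag1 (ENSMUSG00000027276, chr2:137081456-137116644), which encodes Jagged 1, moved the other way. Its level was 26.4, 22.5 and 26.7 CPM at 24 h and 16.6, 15.5 and 16.7 CPM at 48 h. All of the 48 h libraries lay below all of the 24 h libraries. The log2 fold change was -0.63 ± 0.07 (standard error; 95% interval -0.79 to -0.48, edgeR adjusted p = 1.02e-06).

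Jag2 (ENSMUSG00000002799, chr12:112907819-112929776), the gene of Jagged 2, had levels of 33.8, 31.7 and 32.0 CPM at 24 h and 34.2, 35.1 and 34.2 CPM at 48 h. The groups lay side by side without overlap, but the difference did not pass the test (log2 fold change 0.08, 95% interval -0.01 to 0.18, edgeR adjusted p = 0.106). The interval bounds any change at 1.13-fold upward. Dll3 (ENSMUSG00000003436, chr7:28293553-28302238) had only 50 to 70 counts in a library and stood at 2.20 to 2.73 CPM at 24 h and 2.48 to 3.20 CPM at 48 h. The groups overlapped, and the log2 fold change of 0.20 had a 95% interval from -0.15 to 0.56 (edgeR adjusted p = 0.31), which leaves room for changes between 0.898-fold and 1.47-fold.

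The 3 receptors changed by small amounts, Notch1 downward and the other two upward. Notch1 (ENSMUSG00000026923, chr2:26457903-26516663) stood at 73.2, 66.7 and 70.5 CPM at 24 h and at 61.3, 63.2 and 60.4 CPM at 48 h. It was lower in all 48 h libraries, with a log2 fold change of -0.19 ± 0.04 (standard error, edgeR adjusted p = 0.000487). Notch2 (ENSMUSG00000027878, chr3:98013527-98150361) stood at 62.1, 60.3 and 60.6 CPM at 24 h and at 70.1, 71.7 and 67.2 CPM at 48 h. It was higher in all 48 h libraries, with a log2 fold change of 0.19 ± 0.04 (edgeR adjusted p = 0.000169). Notch3 (ENSMUSG00000038146, chr17:32120820-32166852) stood at 69.7, 66.0 and 66.9 CPM at 24 h and at 77.4, 80.7 and 83.0 CPM at 48 h. It was higher in all 48 h libraries as well, with a log2 fold change of 0.25 ± 0.04 (edgeR adjusted p = 1.13e-05). The intervals of Notch1 (-0.27 to -0.11) and Notch3 (0.18 to 0.33) lie on opposite sides of 0. Each of the 3 changes is smaller than the median size of the log2 fold change over all tested genes, which was 0.26. Notch2 was the member with fractional counts in some libraries, from reads that RSEM divides between genes, and the other 9 had whole counts in every library. Notch1 and Notch3 share exon sequence with non-coding genes on the opposite strand, and Notch2 with one on its own strand. These partners had at most 8 counts in a library.

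Both target genes with enough counts for the test fell. Hes1 (ENSMUSG00000022528, chr16:30064384-30067796), which encodes the repressor HES1, had 287, 319 and 409 counts at 24 h and 74, 71 and 82 at 48 h. Its level was 14.4, 15.6 and 17.3 CPM at 24 h and 3.41, 3.25 and 3.70 CPM at 48 h, with a wide gap between the groups. The level was 4.57-fold lower at 48 h, or -2.19 ± 0.11 on the log2 scale (standard error; 95% interval -2.42 to -1.97, edgeR adjusted p = 1.6e-11). Hes1 was at rank 182 among the decreases of all tested genes.

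Hey1 (ENSMUSG00000040289, chr3:8663359-8667256), of the related Hey family of repressors, was scarce. It had 34, 42 and 31 counts at 24 h and 20, 11 and 13 at 48 h, which are 1.70, 2.05 and 1.31 CPM and 0.921, 0.503 and 0.586 CPM. All 48 h libraries were below all 24 h libraries, with a log2 fold change of -1.32 ± 0.29 (standard error, 95% interval -1.94 to -0.69, edgeR adjusted p = 0.000959). Hes5 (ENSMUSG00000048001, chr4:154960923-154962371), a target that neural progenitors are known to express, had 1 count in 1 library of 24 h and 0 in the other 5. A library with 0 counts allows a level of up to 0.150 CPM at the lowest depth, as the level of 3 counts there, an allowance for counting error only.

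**Figure D2:**
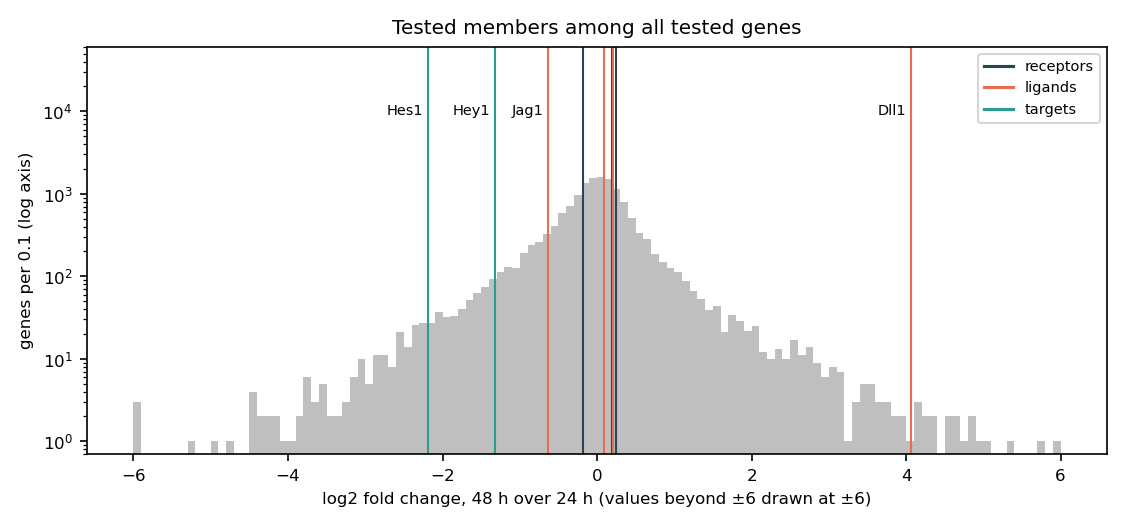
Histogram of the log2 fold change (48 h over 24 h) of all 14889 tested genes, in bins of 0.1 on a logarithmic axis of gene numbers, with a vertical line for each of the 9 tested genes, coloured by role. The receptors, Jag2 and Dll3 lie in the central peak, Hes1 (-2.19) and Hey1 (-1.32) lie in the lower tail and Dll1 (4.06) in the far upper tail.

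Levels of different genes can be set side by side only per length, so levels were also expressed as CPM per kilobase of exon. On this scale the order at 24 h was Notch3 (8.35 ± 0.24, SD, n = 3), Hes1 (7.74 ± 0.73), Notch2 (5.66 ± 0.09), Notch1 (4.93 ± 0.23), Jag2 (4.67 ± 0.16), Jag1 (4.32 ± 0.41), Dll3 (0.870 ± 0.093), Dll1 (0.768 ± 0.091), Hey1 (0.517 ± 0.113) and Hes5 (0.010 ± 0.018). Neighbours whose libraries overlap are Notch3 and Hes1, Notch1 and Jag2, Jag2 and Jag1, and Dll3 and Dll1. At 48 h the order was Dll1 (12.8 ± 0.27, SD, n = 3), Notch3 (9.93 ± 0.35), Notch2 (6.46 ± 0.21), Jag2 (4.95 ± 0.07), Notch1 (4.33 ± 0.10), Jag1 (2.79 ± 0.11), Hes1 (1.69 ± 0.11), Dll3 (0.997 ± 0.125) and Hey1 (0.205 ± 0.068), with Hes5 at 0, and no libraries of neighbours overlapped. Dll1 thus went from the eighth place to the first. Among all tested genes, Dll1 moved from percentile 20.5 of the per-length level to percentile 73.3, and Hes1 from 62.5 to 33. Gene length bears on the order: with the longest transcript in place of all exons, Hes1 (10.7) led Notch3 (8.42) at 24 h while Notch1 (7.39) and Jag2 (6.37) led Notch2 (5.81), and at 48 h Jag2 (6.75) led Notch2 (6.63).

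The ligand RNA was of different makeup at the 2 times. Over Dll1, Dll3, Dll4, Jag1 and Jag2, the summed per-length level was 11.1, 10.2 and 10.7 CPM per kilobase of exon at 24 h and 21.2, 21.8 and 21.9 at 48 h. Dll1 held 7.68%, 7.63% and 6.32% of this sum at 24 h and 58.9%, 59.2% and 59.3% at 48 h. The share of Jag1 went from 40.6% ± 2.5 to 12.9% ± 0.65 (SD, n = 3 each) and that of Jag2 from 43.9% ± 0.86 to 22.9% ± 0.41. Over Notch1 to Notch4 the summed level was 22.4, 21.3 and 21.7 at 24 h and 20.8, 21.5 and 21.1 at 48 h, and the groups overlapped. Within the receptors, Notch3 took 38.3% ± 0.19 at 24 h and 47.0% ± 1.4 at 48 h (SD, n = 3 each), and Notch4 took 13.1% ± 0.39 and 1.84% ± 0.07. These sums and shares are descriptions of RNA and were not tested.

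**Figure D3:**
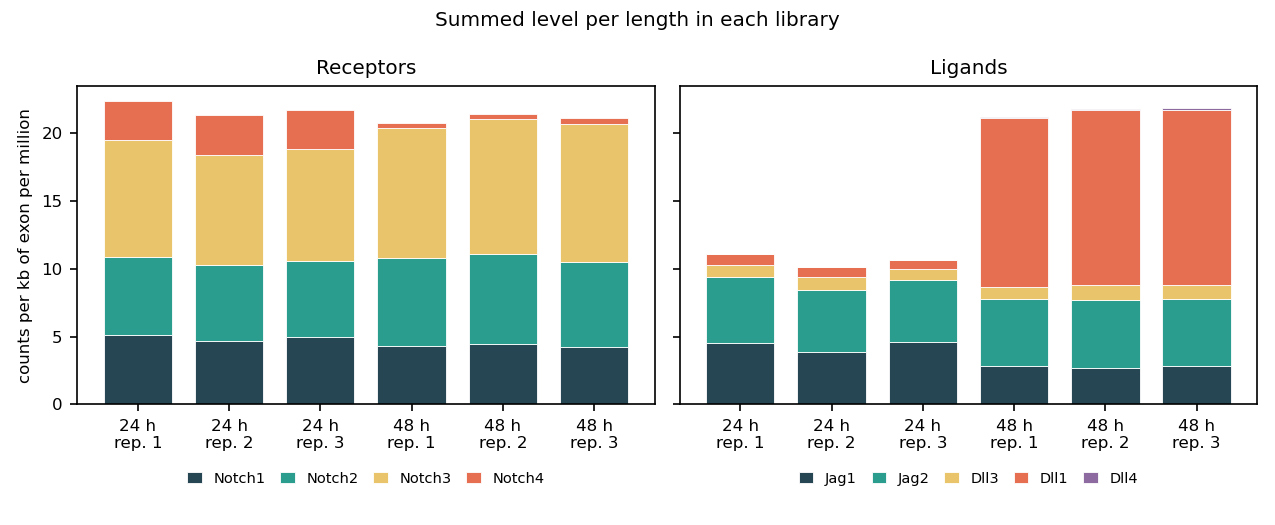
Summed per-length level (CPM per kilobase of exon, stacked from 0) of the 4 Notch receptors and of 5 ligands in each of the 6 libraries. The receptor columns are of similar height, between 20.8 and 22.4, while the ligand columns go from between 10.2 and 11.1 to between 21.2 and 21.9, with Dll1 the tallest segment at 48 h.

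A list of 57 other genes of the pathway was compared in the same way. Of these, 52 had enough counts for the test, and 16 rose and 24 fell, 40 in all, where 30.9%, 31.9% and 62.8% of all tested genes did. Their median on the log2 scale was -0.10 over the 52, against -0.01 for all tested genes. Most of these changes were small, and 3 rose and 6 fell by at least 2-fold, against 4.59% and 6.63% of all tested genes. Scaled by library size alone, 39 changed, 12 upward and 27 downward.

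Notch4 (ENSMUSG00000015468), the receptor best known from blood vessels, fell more than any tested gene of the list. It stood at 23.0, 23.2 and 22.9 CPM at 24 h and at 3.22, 3.11 and 3.07 CPM at 48 h. All 48 h libraries were far below the 24 h libraries, a level 7.35-fold lower (log2 fold change -2.88 ± 0.09, standard error, edgeR adjusted p = 3.55e-14). Of the other ligands in the list, Dlk1 (log2 fold change 0.60, edgeR adjusted p = 0.0938) was not called, and Dll4 and Dlk2 had too few counts to test. Dll4 had 0, 1 and 2 counts at 24 h and 6, 6 and 11 at 48 h.

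Of the 11 genes that mature or cleave the receptor, 10 fell and none rose, against 31.9% and 30.9% of all tested genes, and the median over the group was -0.32 on the log2 scale. Adam10, an ADAM protease of the cut after ligand binding, went from 59.3 ± 2.87 to 45.3 ± 0.79 CPM (SD, n = 3 each), a log2 fold change of -0.39 (edgeR adjusted p = 4.01e-07). Aph1b and Aph1c, near-identical genes for a gamma-secretase subunit, had log2 fold changes of -1.05 and -1.13, but their counts were fractional and each is uncertain alone. Their summed counts were whole, at 63, 63 and 74 in the 24 h libraries and 31, 38 and 27 in the 48 h libraries. Adam17, named after its values were seen, was the gene of this group not called (edgeR adjusted p = 0.921), and the sign of its log2 fold change (0.0055) turned with library size as the only scaling. Psen2 and Furin, whose log2 fold changes were -0.32 and -0.20, lost their call with DESeq2 (adjusted p = 0.106 and 0.101). Psen2 also lost it without replicate 2 of 24 h or replicate 1 of 48 h, and Furin without replicate 1 or 2 of 24 h or replicate 2 or 3 of 48 h, with an edgeR adjusted p of up to 0.121 and 0.115.

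Of the 4 ubiquitin ligases that act on ligands, 3 fell, against 31.9% of all tested genes, a group too small to read that count as particular to it. Neurl1a went from 10.05 ± 0.51 to 4.30 ± 0.26 CPM (SD, n = 3 each; log2 fold change -1.22 ± 0.10, standard error, edgeR adjusted p = 1.64e-08), while Mib2 and Mib1 fell by 0.28 and 0.10 on the log2 scale. Of the 3 Fringe genes, whose products add sugars to the receptor and alter which ligands it answers, Rfng was called with a log2 fold change of 0.12 (edgeR adjusted p = 0.047). It lost the call in 9 of 15 alternatives, with the highest adjusted p (0.306) under library size as the only scaling, and also without any 1 library other than replicate 1 of 24 h (edgeR adjusted p = 0.0517 to 0.137).

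Receptor trafficking and turnover showed 2 rises and 5 falls among 10 genes, a share of called genes near the 62.8% of all tested genes, and the Deltex family within it was divided. Dtx4 stood at 3.45, 3.86 and 2.84 CPM at 24 h and at 18.6, 18.5 and 17.6 CPM at 48 h, 5.41-fold higher and without overlap (log2 fold change 2.43 ± 0.10, standard error, edgeR adjusted p = 2.9e-12). Numb, Itch and Dtx3, which count among the falls, lost their call with DESeq2 (adjusted p = 0.0979, 0.0552 and 0.123). Numb also lost it without replicate 2 of 24 h or replicate 3 of 48 h, Itch without replicate 3 of 24 h or replicate 1 of 48 h, and Dtx3 without replicate 1 of 24 h or replicate 3 of 48 h. Dtx1, itself known as a Notch target in other cells, and Dtx3l were lower at 48 h, with log2 fold changes of -0.60 and -0.55 (edgeR adjusted p = 3.47e-08 and 3.38e-07).

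Of the 7 genes of the nuclear complex, 6 rose and none fell, against 30.9% and 31.9% of all tested genes, and the median over the group was 0.14 on the log2 scale. The other one, Kat2b, named after its values were seen, had a log2 fold change of -0.063 without overlap (edgeR adjusted p = 0.052). It was called lower in 6 alternatives, namely library size as the only scaling (edgeR adjusted p = 0.000736), no filter, a minimum of 10 counts in every library, and without replicate 2 or 3 of 24 h or replicate 3 of 48 h. Rbpj, the DNA-binding core of the pathway, was abundant and went from 754.2 ± 32.4 to 839.3 ± 5.85 CPM (SD, n = 3 each; log2 fold change 0.15, edgeR adjusted p = 2.35e-05). Maml2 and Maml3, Mastermind coactivators of low level, had log2 fold changes of 1.12 and 0.75 (edgeR adjusted p = 0.00413 and 0.0158). Maml1 and Snw1 kept their direction but lost the call with library size as the only scaling (adjusted p = 0.0946 and 0.277), and Maml3 lost it with DESeq2 (adjusted p = 0.0511) and without 1 library, either replicate 2 of 24 h or replicate 1 of 48 h (adjusted p = 0.0508 and 0.105).

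The 11 genes listed as corepressors moved both ways, with 5 higher and 4 lower, against 30.9% and 31.9% of all tested genes. In the Groucho family of Tle genes, Tle1, Tle2, Tle3 and Tle5 were called lower and only Tle4 higher. Tle1 and Tle3, named after their values were seen, had log2 fold changes of -0.33 and -0.48 (edgeR adjusted p = 0.000791 and 3.07e-09). Tle5 went from 112.8 ± 3.64 to 51.8 ± 0.86 CPM (SD, n = 3 each; log2 fold change -1.12 ± 0.03, standard error, edgeR adjusted p = 3.76e-14), and Tle2, at about 1 CPM or less, had a log2 fold change of -2.42. Tle4, named after its values were seen, rose from 306.2 ± 7.92 to 434.1 ± 1.47 CPM (log2 fold change 0.50, edgeR adjusted p = 1.68e-12). Scaled by library size alone, Spen lost its call as higher (edgeR adjusted p = 0.0535) and Cir1 was called lower (-0.14 on the log2 scale, edgeR adjusted p = 0.0198). L3mbtl3, a partner of RBPJ in repression, rose by 0.64 on the log2 scale (edgeR adjusted p = 7.06e-07).

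Beyond Hes1 and Hey1, the feedback gene Nrarp fell, while the Hes family members Hes6 and Hes3 rose. Nrarp, a feedback inhibitor and a direct target of the pathway, stood at 3.66, 3.37 and 3.94 CPM at 24 h and at 1.61, 1.87 and 2.12 CPM at 48 h, with no overlap (log2 fold change -0.97 ± 0.16, standard error, edgeR adjusted p = 7.89e-05). Exons of Gm38287 on the opposite strand cover 2051 of the 2582 exonic bases of Nrarp, and the counts of Gm38287 were not examined. Hes6, which is known to oppose Hes1 rather than to serve as a Notch target, rose from 9.20 ± 0.75 to 12.0 ± 0.99 CPM (SD, n = 3 each; log2 fold change 0.39, edgeR adjusted p = 0.00146). Hes3 rose by 1.55 on the log2 scale (edgeR adjusted p = 0.00107) but had 5 to 9 counts in a library at 24 h and 20 to 23 at 48 h. Hey2 was tested and not called (edgeR adjusted p = 0.615), and Hes2, Hes7 and Heyl had too few counts to test.

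**Figure D4:**
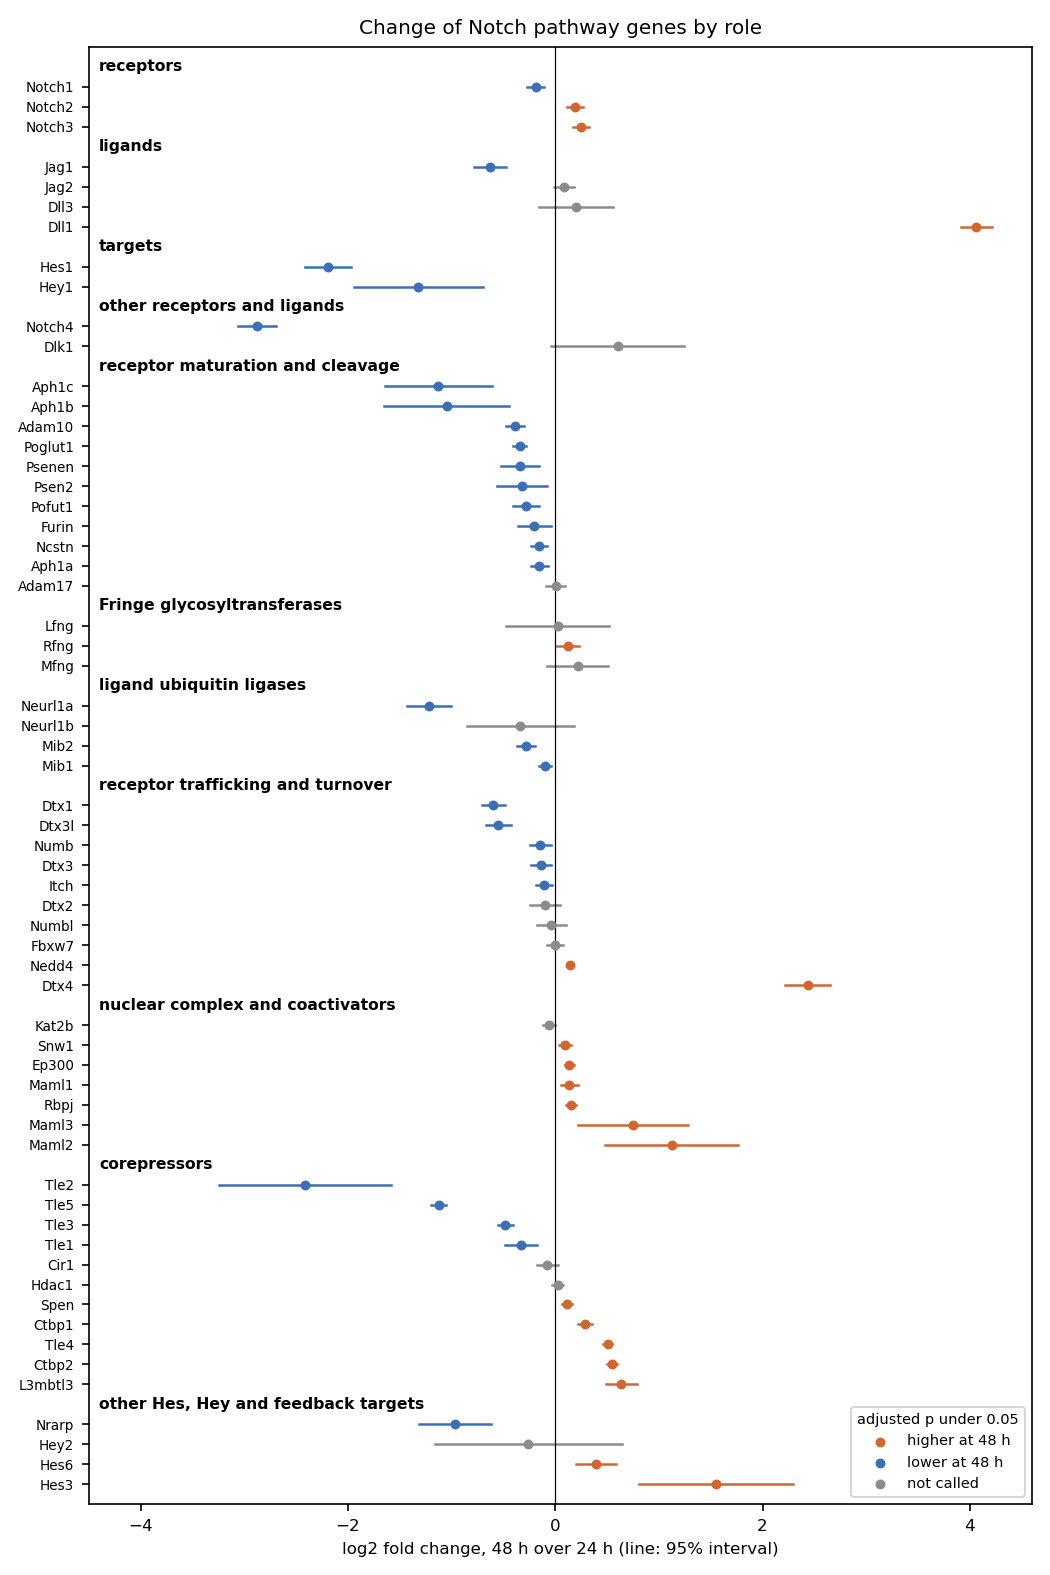
Log2 fold change (48 h over 24 h, horizontal axis) of the tested genes of the pathway, in groups by role, with points for the fitted value and lines for the 95% interval; colour gives the call at an adjusted p under 0.05. Dll1 (4.06) and Dtx4 (2.43) stand far to the right and Notch4 (-2.88), Tle2 (-2.42) and Hes1 (-2.19) far to the left, while the receptor maturation group lies at or left of 0 and the nuclear group mostly just right of it.

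Proneural genes, which Hes factors are known to repress, were at low levels at both times. Neurod1 counts, like those of Rbpj, Tle4 and Itch, were fractional in some libraries. Of 6 proneural genes, 3 had enough counts to be tested, 2 rose and 1 fell, against 30.9% and 31.9% of all tested genes. The group is too small to read these counts as particular to it. Neurod1 had levels of 4.91, 4.88 and 5.68 CPM at 24 h and 9.30, 8.55 and 11.5 CPM at 48 h (log2 fold change 0.92 ± 0.12, standard error, edgeR adjusted p = 5.08e-06). Neurog3 had a log2 fold change of 1.04 at about 1 CPM or less (edgeR adjusted p = 0.0069). Atoh1 had a log2 fold change of -0.87 (edgeR adjusted p = 0.0243), which was not called with DESeq2 (adjusted p = 0.115) or without replicate 1 or 3 of 24 h or replicate 2 or 3 of 48 h (edgeR adjusted p of up to 0.0963).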

How the data were processed

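Messenger RNA libraries of 6 samples were analysed, grouped by the sample titles. The authors deposited estimated counts per gene from RSEM, 1 column per sample. Cutadapt 1.9.1, STAR 2.5.2, RSEM 1.3.0 and build GRCm38 are named in the submitters' processing notes; the annotation, the use of strand and filters are not given in the sources used here. Symbols, positions and exon lengths came from GENCODE M21 (GRCm38). The symbol Tle5 was matched through its RefSeq synonym. Counts were rounded, filtered with filterByExpr (minimum count 10), scaled by TMM and compared by the quasi-likelihood test of edgeR 4.0.16 under R 4.3.3 in a model that held the time group alone, on all 14889 tested genes, with Benjamini-Hochberg adjustment. The standard error is the size of the log2 fold change divided by the root of F. The test was tested on simulated data. Alternatives used other scalings and filters, DESeq2 1.42.0, limma 3.58.1 voom, unrounded counts, a replicate block, a threshold of 0.01 and the removal of each library.

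The members and lists were chosen with earlier results of these data known. Named genes are the 10 members, in each role group of the pathway list the up to 3 called genes with the largest change, Rbpj, and the called proneural genes. Some genes of these lists are not reported here, and the counts and medians of the lists leave them out.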

Additional observations from a re-analysis of the deposited data

How the results depend on the processing

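The calls and directions of the 9 tested members held in all 15 alternative fits, and 7 of them were called in each, also at a threshold of 0.01. Dll1 ranged from 3.97 to 4.14 and Hes1 from -2.26 to -2.12 on the log2 scale. The count of other pathway genes called, 40, ranged from 33 at 0.01 and with DESeq2 to 41 without a filter. With the replicate block 7 members, 39 other pathway genes and 9235 genes in all changed, and Rfng lost its call (adjusted p = 0.0573). Libraries of one number correlated at -0.04, -0.03 and -0.02 in their deviations from the group means, and the numbers were not taken as pairs.

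A few uncalled genes changed sign. With library size only, Adam17 was at -0.055, Lfng at -0.038 and Hdac1 at -0.036. Fbxw7 was at 0.0041 with RLE and 0.0040 with DESeq2. Without 1 library, Adam17 ranged from -0.017 to 0.051, Lfng from -0.10 to 0.15, Fbxw7 from -0.028 to 0.021 and Hey2 from -0.59 to 0.062.

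Lengths of the longest transcript, which are shorter than all exons together, raised per-length levels. Those at 24 h and 48 h became 7.39 and 6.49 for Notch1, 0.904 and 15.0 for Dll1, 6.37 and 6.75 for Jag2, 10.7 and 2.35 for Hes1, and 0.697 and 0.276 for Hey1, with Notch2 at 5.81 at 24 h. The summed ligand level became 12.7 and 25.9 and the summed receptor level 25.1 and 23.6. Dll1 then held 58.1% of the ligands at 48 h, and Notch4 held 13.9% and 2.01% of the receptors. With library size only, Notch2 was at 5.77 at 24 h, and Dll1 was at 12.5, Jag2 at 4.84, the ligands at 21.1 and the receptors at 20.7 at 48 h. The lengths for sums and shares were chosen after seeing the data. Hes5, Dll4, Dlk2, Hes2, Hes7 and Heyl had too few counts to be tested.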

Other observations

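Of the fibroblast markers, Dcn, which encodes the matrix protein decorin, had 0 counts in each 24 h library and 23, 25 and 32 counts in the 48 h libraries (edgeR adjusted p = 7.05e-07). Col1a1, the main collagen of fibroblasts, had 16, 21 and 30 counts at 24 h and 4, 9 and 7 at 48 h (edgeR adjusted p = 0.000654), and Postn and Lum were at 0 in all 6 libraries.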
